A study of Mus musculus with 69 samples.

Results

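The messenger RNA of 9 genes that set the activity of mTORC1 was followed across the RNA-seq libraries of a study of the STAT5 paralogs in mouse T cells. The genes were Flcn, Fnip1 and Fnip2 (the folliculin complex), Sesn1 and Sesn3 (sestrins), Ddit4, Depdc5, Tsc1 and Rptor. They were taken by symbol, and all 9 were present in each of the 3 deposited count tables, out of 24311 rows in all. Of 69 libraries, 67 could be put in a group from their labels (48 of CD8+ T cells, 15 of naive CD4+ T cells and 4 of transduced cells), and the other 2, of naive CD4+ cells, have a title without cytokine but a treatment label of IL-7 and entered no comparison.

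The mice were wild type (WT, Stat5a+/+ Stat5b+/+), AAB (Stat5a-/- Stat5b+/-, retaining a single Stat5b allele) or BBA (Stat5a+/- Stat5b-/-, retaining a single Stat5a allele). The deletions were germline, so every cell of the animal carried them. CD8+ T cells were sorted from pooled lymph nodes and spleen by surface markers, with 2 libraries for each genotype and culture. Sorted cells were naive (Tnv, CD44 low and CD62L high), memory (Tcm, CD44 high and CD62L high) or effector cells (Tem, CD44 high and CD62L low). They were sequenced without cytokine or after 12 to 16 hours with IL-7 (Tnv and Tcm) or IL-15 (Tnv, Tcm and Tem). Naive CD4+ T cells were taken without cytokine (3 WT, 2 AAB and 2 BBA libraries) or with IL-7 (3 WT, 2 AAB and 3 BBA). For libraries without cytokine the labels describe a culture and the study's methods cells taken directly ex vivo, so culture and cytokine cannot be told apart in the responses below. IL-7 and IL-15 are cytokines of the common gamma chain family and activate STAT5. In the transduced set, CD8+ T cells from AAB mice were activated in vitro and infected with a retrovirus carrying constitutively active STAT5A (CA-STAT5A) or an empty vector. They were then kept in IL-2 and afterwards sorted for the GFP that the virus encodes, with 2 libraries for each virus.

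mTORC1 is the kinase complex through which a cell couples amino acids, energy and growth signals to protein synthesis, and T cells need it to leave quiescence. It works at the lysosome, where the Rag GTPases recruit it when amino acids are plentiful and the GTPase Rheb switches it on. Folliculin with its partner Fnip1 or Fnip2 is the GTPase-activating protein for RagC and RagD, and favours recruitment. The sestrins act through GATOR2 and GATOR1 (of which Depdc5 is a subunit) to hold the Rag GTPases off, Ddit4 and Tsc1 act through the TSC complex to hold Rheb off, and Rptor (raptor) is the subunit of mTORC1 that binds its substrates. Most of these proteins are controlled after translation, and the values here are of messenger RNA.

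Each CD8+ library held between 5926139 and 25612758 counts, each CD4+ library between 6705004 and 34118295, and each transduced library between 11020965 and 16516525. Levels below are CPM, that is, counts scaled to a common library size. Stat5a was 32.5 to 108 CPM in WT CD8+ libraries and 0.968 to 4.90 CPM in AAB libraries, whereas Stat5b fell only from 164 to 353 CPM in WT to 48.9 to 94.1 CPM in BBA. Reads counted as Stat5b thus remained in BBA, and their source was not tested. A pair of WT libraries stood apart. Replicate 1 of WT Tcm with IL-7 had Ddit4 at 436 CPM and Pim1, a STAT5 target, at 116 CPM, against 26.8 and 509 CPM in replicate 2, and replicate 2 of WT Tnv with IL-15 had Cd4 at 237 CPM against 6.54 CPM in replicate 1. Some results of the members that rest on them are given with and without them. The other results, among them those of other genes and the correlations, include both libraries. The transduced libraries went against their label of CD8+ T cells: the summed level of Cd8a and Cd8b1 was 1.71 to 4.73 CPM (1218.4 to 3219 CPM in the CD8+ libraries), that of the 4 NK cell markers was 1836 to 2176 CPM, and that of the 5 myeloid markers was 1176 to 1326 CPM with CA-STAT5A and 480 to 624 CPM with empty vector.

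Calls required a difference above 1.5-fold and an adjusted p below 0.05, with adjustment over all genes tested (edgeR's quasi-likelihood test, Benjamini-Hochberg). All adjusted p-values below are from that test. Differences are log2 fold changes ± standard error. The study's methods call its replicates biological, while the labels tie no library to an animal, and the p-values measure the spread between these libraries.

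The stretches of promoter just before the annotated start sites of Fnip1, Sesn1 and Ddit4 are shown because these genes gave most of the calls among the members. They come from RefSeq (GRCm38.p6), run 5′ to 3′ on the strand of the gene and end at the base before the start. RefSeq gave a start for all 9 genes, and 2 starts for Sesn1. Capitals mark a CACGTG, the E-box core that TFEB, TFE3 and Myc recognise.
Fnip1, chr11:54438029-54438178, plus strand: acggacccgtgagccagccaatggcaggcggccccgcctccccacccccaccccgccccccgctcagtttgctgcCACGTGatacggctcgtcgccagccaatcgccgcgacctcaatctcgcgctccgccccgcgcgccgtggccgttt
Sesn1, first start, chr10:41810424-41810573, plus strand: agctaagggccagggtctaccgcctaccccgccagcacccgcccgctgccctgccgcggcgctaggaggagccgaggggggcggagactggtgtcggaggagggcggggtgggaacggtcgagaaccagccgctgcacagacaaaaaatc
Sesn1, second start, chr10:41887289-41887438, plus strand: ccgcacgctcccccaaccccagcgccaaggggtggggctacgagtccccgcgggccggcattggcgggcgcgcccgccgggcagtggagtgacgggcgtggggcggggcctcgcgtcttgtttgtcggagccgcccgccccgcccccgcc
Ddit4, chr10:59951771-59951920, minus strand: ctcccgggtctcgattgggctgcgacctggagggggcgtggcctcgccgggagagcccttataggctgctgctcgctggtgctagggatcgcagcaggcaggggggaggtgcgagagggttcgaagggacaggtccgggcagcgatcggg

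Motifs were counted on both strands in windows of 250 bases before to 50 bases after each start. The STAT5 motif TTCNNNGAA was in none of the 10 windows of the 9 genes, and in 8.3% of all 32851 promoter windows. The CACGTG was found in the Fnip1 window alone, 75 bases before the start, and in 7.15% of all windows. The forkhead motif GTAAACA, bound by FoxO factors, was found in the window of the first Sesn1 start alone, as its reverse complement TGTTTAC 22 bases after that start and so outside the stretch printed, and in 3.65% of all windows. A match is a description of the sequence, and these windows say nothing about distant enhancers.

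In GRCm38, Fnip1 lies at chr11:54438199-54518235 on the plus strand, Flcn at chr11:59791408-59810016 on the minus strand and Rptor at chr11:119602905-119899576 on the plus strand. Sesn1 (chr10:41809935-41908424, plus strand) and Ddit4 (chr10:59949669-59951834, minus strand) share chromosome 10. Fnip2 lies at chr3:79455974-79567796 on the minus strand, Sesn3 at chr9:14275067-14333101, Depdc5 at chr5:32863701-32994236 and Tsc1 at chr2:28641228-28691167, the last 3 on the plus strand. All 9 are protein-coding.

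Per kilobase of merged exons, Ddit4 was the most abundant of the 9 in WT Tnv without cytokine, at 129.8 ± 44.2 CPM per kb (SD, n = 2, as for the values that follow). Sesn1 came next at 29.4 ± 1.32 and Flcn at 19.5 ± 2.21 CPM per kb. Sesn3 (8.33 ± 0.330), Rptor (7.15 ± 0.248), Tsc1 (6.95 ± 0.293), Fnip1 (5.37 ± 0.554) and Depdc5 (3.74 ± 0.160) followed, where Rptor and Tsc1 differed by less than their spread. Fnip2 was last at 0.232 ± 0.0559 CPM per kb, so in these cells the folliculin partner with the higher messenger RNA level was Fnip1. WT naive CD4+ cells without cytokine had Ddit4 (136.3 ± 72.6 CPM per kb, n = 3), Sesn1 (32.8 ± 3.20) and Flcn (18.1 ± 0.538) in the same 3 places and Fnip2 last (0.156 ± 0.0495). With IL-7 the order changed in those cells: Sesn1 was first at 60.2 ± 6.66, then Fnip1 at 28.2 ± 1.43, Flcn at 17.5 ± 1.10 and Ddit4 at 12.6 ± 1.75 CPM per kb. Merged exons count every annotated isoform, so these levels are lower bounds where a short isoform is used.

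Fnip1 rose with IL-7 in naive CD4+ T cells, and the rise was large in WT, smaller in AAB and small in BBA. Without cytokine it was 63.3, 58.4 and 56.3 CPM in WT, 64.6 and 51.3 CPM in AAB, and 59.1 and 55.9 CPM in BBA. With IL-7 it was 209.9, 202 and 189.7 CPM in WT, 155 and 155 CPM in AAB, and 75.4, 80.0 and 80.6 CPM in BBA. The genotypes overlapped without cytokine and were fully separated with it, in the order WT, AAB, BBA. In bulk libraries a change in RNA per cell and a change in the share of cells that express a gene cannot be told apart.

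The response of Fnip1 to IL-7 in naive CD4+ cells was 1.76 ± 0.08 on the log2 scale in WT (adjusted p = 1.715e-08), 1.41 ± 0.10 in AAB (adjusted p = 1.77e-06) and 0.45 ± 0.09 in BBA, where it passed the adjusted p (0.00263) but not the fold limit. Folds were 3.39 in WT and 2.67 in AAB. A test of the difference between the responses gave −1.30 ± 0.12 for BBA minus WT (adjusted p = 6.42e-05) and −0.35 ± 0.13 for AAB minus WT (adjusted p = 0.999). Among cells with IL-7, Fnip1 was 2.54-fold lower in BBA than in WT (−1.34 ± 0.06, adjusted p = 8.51e-06) and 1.96-fold higher in AAB than in BBA (0.97 ± 0.06, adjusted p = 0.000337), and in each comparison it was the only member called, of 8 tested, where 5.55% and 1.57% of all genes tested were called. AAB minus WT was −0.37 ± 0.06 (adjusted p = 0.0363), under the fold limit. Without cytokine the genotypes gave −0.04 ± 0.12 for BBA minus WT (adjusted p = 0.944). Each of these calls held when any single library was left out, and the difference between BBA and WT with IL-7 then ranged from −1.37 to −1.31.

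In Tnv, the naive CD8+ cells, Fnip1 was 35.4 and 41.0 CPM in WT, 34.7 and 33.4 CPM in AAB, and 42.1 and 38.6 CPM in BBA without cytokine. With IL-7 it was 135 and 126 CPM in WT, 48.7 and 75.9 CPM in AAB, and 42.6 and 61.7 CPM in BBA. Both WT libraries with IL-7 lay above all libraries of the deficient genotypes, which overlapped each other. The response was 1.77 ± 0.21 in WT (3.40-fold, adjusted p = 0.000369), 0.86 ± 0.21 in AAB (1.81-fold, adjusted p = 0.0174) and 0.36 ± 0.21 in BBA (adjusted p = 0.249). BBA minus WT was −1.34 ± 0.25 with IL-7 (adjusted p = 0.0446, where 2.69% of all genes tested were called), and its response differed from that of WT by −1.40 ± 0.30 (adjusted p = 0.0377, where 2.43% were called). Fnip1 was the only one of 8 members tested that was called in either comparison. AAB minus WT, at −1.08 ± 0.25, did not pass (adjusted p = 0.206), but passed with the replicate number as a block (−1.12, adjusted p = 0.0472). All 6 Tnv libraries with IL-7 were male and all 6 without cytokine were female by their sex-linked transcripts, so sex and cytokine cannot be told apart in this response. The same holds for every other response of Tnv to IL-7 given below. The comparison of genotypes within IL-7 is between males only. With 2 libraries a group the BBA calls were fragile. The one with IL-7 held in 2 of 6 refits with a library left out and was lost without either WT or either BBA library. That on the responses held in 3 of 12 and was also lost in 1 fit over all libraries. Both were lost with Bonferroni adjustment.

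With IL-15, Fnip1 in Tnv was 83.9 and 64.6 CPM in WT, 51.7 and 47.6 CPM in AAB, and 45.5 and 42.4 CPM in BBA. The 3 genotypes did not overlap, and the lower WT value was that of the library with high Cd4. The response was 0.97 ± 0.13 in WT (1.95-fold, adjusted p = 0.00192), 0.58 ± 0.13 in AAB (adjusted p = 0.0112, under the fold limit) and 0.18 ± 0.14 in BBA (adjusted p = 0.34). BBA minus WT was −0.72 ± 0.16 (adjusted p = 0.0321), the only call among 9 members tested, where 9.43% of all genes tested were called. It became −0.91 without the WT library with high Cd4, and held in 1 of 6 refits with a library left out. It was also lost in 1 fit over all libraries and with Bonferroni adjustment. The responses of BBA and WT differed by −0.78 ± 0.19 (adjusted p = 0.0598), by −1.002 (adjusted p = 0.0268) without that library, and by −0.77 (adjusted p = 0.0327) with the replicate number as a block.

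In Tcm with IL-15, Fnip1 was 65.1 and 63.5 CPM in WT, 42.1 and 37.6 CPM in AAB, and 40.9 and 42.3 CPM in BBA, against 29.2 to 41.0 CPM in the 6 libraries without cytokine. WT was above both deficient genotypes, which overlapped. The response was called in WT alone (0.91 ± 0.14, 1.87-fold, adjusted p = 0.00331) and was 0.30 ± 0.14 in AAB (adjusted p = 0.255) and 0.21 ± 0.14 in BBA (adjusted p = 0.357). The difference between responses was −0.69 ± 0.20 for BBA minus WT (adjusted p = 0.0618, and 0.0176 with the replicate number as a block) and −0.60 ± 0.20 for AAB minus WT (adjusted p = 0.296). AAB minus WT was −0.64 ± 0.10 with IL-15 (adjusted p = 0.0151), and BBA minus WT was −0.57 ± 0.10 (adjusted p = 0.00461), just under the fold limit. Fnip1 and Ddit4 were the 2 of 9 members called between AAB and WT in that condition, where 4.27% of all genes tested were called. The Fnip1 call held in 2 of 6 refits with a library left out, being lost without either WT or either AAB library, and was lost in 1 fit over all libraries (−0.69, adjusted p = 0.182). With the replicate number as a block Fnip2 was called there as well (−0.93, adjusted p = 0.0332).

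In Tem no Fnip1 contrast was called. It was 30.4 and 31.7 CPM in WT Tem without cytokine and 41.1 and 48.2 CPM with IL-15, and 30.9 to 37.8 CPM in the 4 AAB and BBA libraries with IL-15. WT lay above the others with IL-15 (response 0.52 ± 0.14 in WT, adjusted p = 0.124; BBA minus WT −0.36 ± 0.16, adjusted p = 0.31). Among WT cells with IL-15, Tem was below Tcm by −0.57 ± 0.14 (adjusted p = 0.0287, under the fold limit). In Tcm with IL-7 the WT libraries were 24.6 and 77.6 CPM, the first of them the library that stood apart, against 39.6 to 44.8 CPM in AAB and BBA. With that library the WT response was 0.56 ± 0.40 (adjusted p = 0.547) and BBA minus WT was −0.19 ± 0.47 (adjusted p = 0.819). Without it they were 1.17 and −0.80. Without the other WT library instead, BBA minus WT was 0.90, so its direction depended on which WT library was kept.

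**Figure D1:**
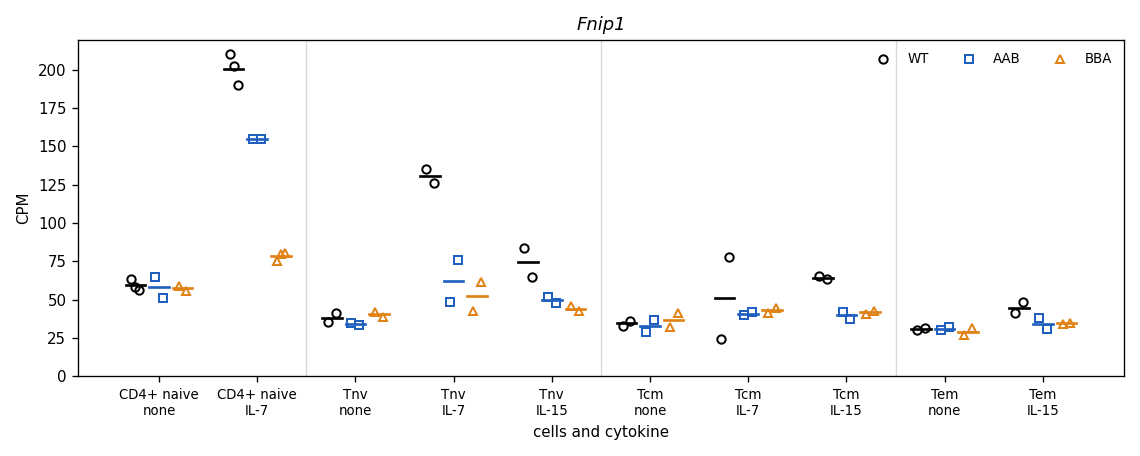
Fnip1 level in CPM (vertical axis) by cell type and cytokine (horizontal axis). Points are libraries, short lines are group means, with WT as black circles, AAB as blue squares and BBA as orange triangles. WT libraries with a cytokine stand above the deficient genotypes, most clearly in naive CD4+ cells with IL-7 (189.7 to 209.9 CPM in WT and 75.4 to 80.6 CPM in BBA), and 1 WT Tcm library with IL-7 is at 24.6 CPM.

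Flcn, the catalytic partner of Fnip1, was flat. It was 62.1 to 103 CPM over the 48 CD8+ libraries (median 84.8 CPM), 70.5 to 92.0 CPM over the CD4+ libraries and 75.5 to 90.5 CPM over the transduced libraries. Where Fnip1 differed most, in naive CD4+ cells with IL-7, Flcn was 70.5, 80.0 and 76.1 CPM in WT, 87.8 and 82.0 CPM in AAB, and 81.0, 91.4 and 92.0 CPM in BBA. The WT libraries were the lowest there, by 0.23 ± 0.08 on the log2 scale against BBA (adjusted p = 0.0936). Over all 66 contrasts the log2 difference of Flcn stayed between −0.28 and 0.30, and it was called in none.

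Fnip2 was low, with as few as 12 reads in a library, and was tested in 36 of the 66 contrasts because the filter on low counts removed it from the others. In WT Tcm it was 1.65 and 1.83 CPM without cytokine and 8.47 and 6.26 CPM with IL-15. These groups did not overlap, and the response was called (2.08 ± 0.50, adjusted p = 0.0252). It was 0.45 in AAB (adjusted p = 0.668) and 0.96 in BBA (adjusted p = 0.227), and the tests of the difference between responses were not called. In BBA Tnv it was 1.59 and 2.36 CPM without cytokine and 10.4 and 4.22 CPM with IL-15 (1.91 ± 0.51, adjusted p = 0.0169), and there WT stayed at 2.68 and 2.64 CPM with IL-15. AAB minus WT in Tcm with IL-15 was −0.92 ± 0.30 (adjusted p = 0.11), and was called with the replicate number as a block (−0.93, adjusted p = 0.0332) and without the filter on low counts (−1.01, adjusted p = 0.0184). The WT Tcm call held in 8 of 12 refits with a library left out and the BBA Tnv call in 9 of 11.

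The transduced cells held the most Fnip2. It was 27.5 and 24.3 CPM with CA-STAT5A and 12.2 and 8.75 CPM with empty vector. The groups did not overlap, and Fnip2 was the only one of 9 members called (1.30 ± 0.21, 2.47-fold, adjusted p = 0.0170), where 6.76% of all genes tested were called. Without replicate 1 of CA-STAT5A the adjusted p was 0.0957. The summed level of the 5 myeloid markers, all detected, was 1176 to 1326 CPM with CA-STAT5A against 480 to 624 CPM with empty vector. Nearly all of that sum with CA-STAT5A was Itgam, at 1271 and 1123 CPM against 291 and 314 CPM with empty vector. The rest of the sum was lower with CA-STAT5A than with empty vector, so the higher sum rests on Itgam alone. The part of the cell mix in the difference of Fnip2 was not tested. Of the 9 STAT5 targets listed further on, Bcl2 was called higher with CA-STAT5A (1.26 ± 0.16, adjusted p = 0.00826) and 4 were called lower, Socs3 (−1.09), Pim2 (−1.67), Myc (−0.76) and Il2ra (−1.61). Fnip1 was 41.5 and 41.0 CPM with CA-STAT5A and 50.4 and 35.8 CPM with empty vector, which overlapped (−0.06 ± 0.19, adjusted p = 0.901).

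**Figure D2:**
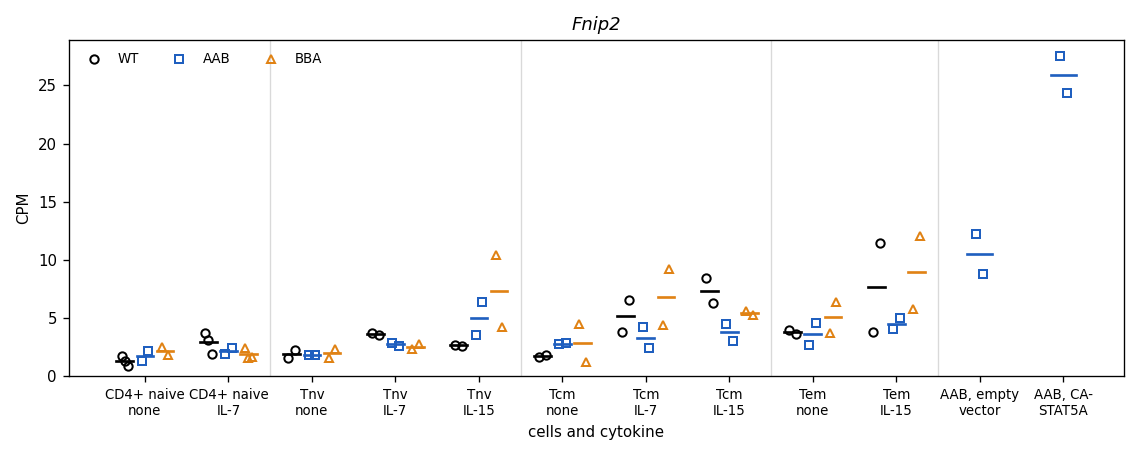
Fnip2 level in CPM (vertical axis) by cell type and culture (horizontal axis), the transduced groups included. Points are libraries and short lines group means. Most libraries of T cells are under 5 CPM, and both libraries with CA-STAT5A (27.5 and 24.3 CPM) are above both with empty vector (12.2 and 8.75 CPM).

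Sesn1, a sestrin known as a p53 target and as a brake on mTORC1 that acts through GATOR2, was higher with cytokine in naive cells of every genotype, and the change was called in all of these responses except that of WT Tnv to IL-7. In naive CD4+ cells it was 135, 116 and 140.5 CPM in WT without cytokine and 220.5, 228 and 269.8 CPM with IL-7. In AAB it was 171 and 115 CPM without and 254 and 329 CPM with IL-7, and in BBA it was 139 and 129 CPM without and 260.0, 292 and 362 CPM with IL-7. No library with IL-7 overlapped one without, in any genotype. The responses were 0.88 ± 0.16 in WT (adjusted p = 0.000842), 1.02 ± 0.19 in AAB (adjusted p = 0.00199) and 1.19 ± 0.18 in BBA (adjusted p = 0.000383), and the genotypes with IL-7 overlapped. Sesn1, Fnip1 and Ddit4 made up the 3 of 8 members called in WT and in AAB, where 16.3% and 13.1% of all genes tested were called. Sesn1 and Ddit4 were the 2 called in BBA (13.6%).

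Tnv showed the same direction. Sesn1 was 121 and 113 CPM in WT without cytokine, 161 and 179.9 CPM with IL-7, and 225 and 168 CPM with IL-15. In AAB it was 116 and 97.9 CPM, then 198 and 247 CPM with IL-7 and 241 and 188 CPM with IL-15. BBA Tnv had 101 and 112 CPM, then 239.5 and 257 CPM with IL-7 and 209 and 201 CPM with IL-15. All libraries with a cytokine lay above all libraries without. With IL-7 the response was 0.54 ± 0.13 in WT (adjusted p = 0.0111, under the fold limit), 1.05 ± 0.13 in AAB (2.07-fold, adjusted p = 0.000685) and 1.22 ± 0.13 in BBA (2.32-fold, adjusted p = 0.000463). BBA exceeded WT by 0.68 ± 0.18 (adjusted p = 0.0795), which did not pass. With IL-15 it was 0.76 ± 0.16 in WT (adjusted p = 0.0174, and 0.98 with adjusted p = 0.0106 without the library with high Cd4), 1.04 ± 0.16 in AAB (adjusted p = 0.00175) and 1.004 ± 0.16 in BBA (adjusted p = 0.00141).

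For Tnv with IL-7, the members called were 2 of 8 in WT (Fnip1 and Ddit4), 3 in AAB (Fnip1, Sesn1 and Ddit4) and 2 in BBA (Sesn1 and Ddit4), where 19.6%, 13.9% and 10.9% of all genes tested were called. For Tnv with IL-15 they were 3 of 9 in WT (Fnip1, Sesn1 and Ddit4), 2 in AAB (Sesn1 and Ddit4) and 3 in BBA (Fnip2, Sesn1 and Ddit4), where 6.36%, 15.9% and 20.2% were called. Whether the set called differs between genotypes was tested gene by gene, as the difference between responses.

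In Tcm the response of Sesn1 was called in the deficient genotypes and not in WT. With IL-7, Sesn1 was 69.8 and 87.7 CPM in WT, against 81.6 and 81.0 CPM without cytokine, but 149 and 119 CPM in AAB (59.7 and 67.9 CPM without) and 155 and 123 CPM in BBA (60.7 and 77.6 CPM without). WT with IL-7 was below all AAB and BBA libraries. The response was 1.10 ± 0.19 in AAB (adjusted p = 0.0376), 1.04 ± 0.19 in BBA (adjusted p = 0.0374) and −0.06 ± 0.19 in WT (adjusted p = 0.93). Sesn1 and Sesn3 were the 2 of 9 members called in AAB and Sesn1 the 1 called in BBA, where 0.617% and 1.49% of all genes tested were called, and 0 were called in WT (0.265%, with 2 members at an unadjusted p under 0.05). The difference between responses was 1.10 ± 0.26 for BBA minus WT (adjusted p = 0.171). Without the WT library that stood apart the WT response was 0.11 (adjusted p = 0.819), and the AAB and BBA responses stayed called. The AAB and BBA calls each held in 2 of 12 refits with a library left out. With IL-7 all WT Tcm libraries were male, as was replicate 2 of AAB and of BBA, and all Tcm libraries without cytokine were female. Sex thus moved with the cytokine here too, and its part in the responses was not tested. Within IL-7 sex also differed between the genotypes. A sex term in that fit left the counts of members called over the CD8+ conditions at 2 for AAB minus WT and 2 for BBA minus WT.

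With IL-15, Sesn1 in Tcm was 80.1 and 89.3 CPM in WT, 87.9 and 81.6 CPM in AAB, and 107 and 123 CPM in BBA. BBA stood above the other 2 genotypes, which overlapped. The response in BBA was 0.76 ± 0.13 (1.69-fold, adjusted p = 0.00545), against 0.07 ± 0.13 in WT (adjusted p = 0.773) and 0.44 ± 0.13 in AAB (adjusted p = 0.0802). BBA and WT responses differed by 0.69 ± 0.18 (adjusted p = 0.0421), the only difference between responses called among 9 members there, where 7.79% of all genes tested were called. It held in 1 of 12 refits with a library left out and under 4 of 9 other settings, and was lost with filterByExpr (0.54, adjusted p = 0.167), without a filter (0.48, adjusted p = 0.276), in 1 fit over all libraries (adjusted p = 0.179), with only the genotypes compared and with Bonferroni adjustment. Within IL-15, BBA minus WT was 0.50 ± 0.11 (adjusted p = 0.00938) and AAB minus BBA was −0.45 (adjusted p = 0.0435), both under the fold limit. BBA minus WT in Tcm with IL-15 thus had 0 members called in the main edgeR fit although 23.7% of all genes tested were. There 5 members (Fnip1, Sesn1, Sesn3, Ddit4 and Rptor) were at an unadjusted p under 0.05. All 5 were also under an adjusted p of 0.05, at less than 1.5-fold.

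Sesn1 also differed by state. Among WT cells, Tcm was below Tnv by −0.52 ± 0.16 without cytokine (adjusted p = 0.109), by −1.14 ± 0.19 with IL-7 (adjusted p = 0.00647) and by −1.20 ± 0.21 with IL-15 (adjusted p = 0.00301). The last 2 were called, and without the WT libraries that stood apart they were −0.96 (adjusted p = 0.0353) and −1.40 (adjusted p = 0.00483). In Tem without cytokine, Sesn1 was 62.0 and 70.5 CPM in WT, 51.8 and 53.6 CPM in AAB, and 33.8 and 49.95 CPM in BBA, in each genotype below its Tcm libraries. The WT difference between Tem and Tcm was −0.28 (adjusted p = 0.481). BBA minus WT was −0.63 ± 0.20 there (adjusted p = 0.301, and 0.0454 with the replicate number as a block). IL-15 called no change of Sesn1 in Tem (0.02 to 0.37 over the genotypes).

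**Figure D3:**
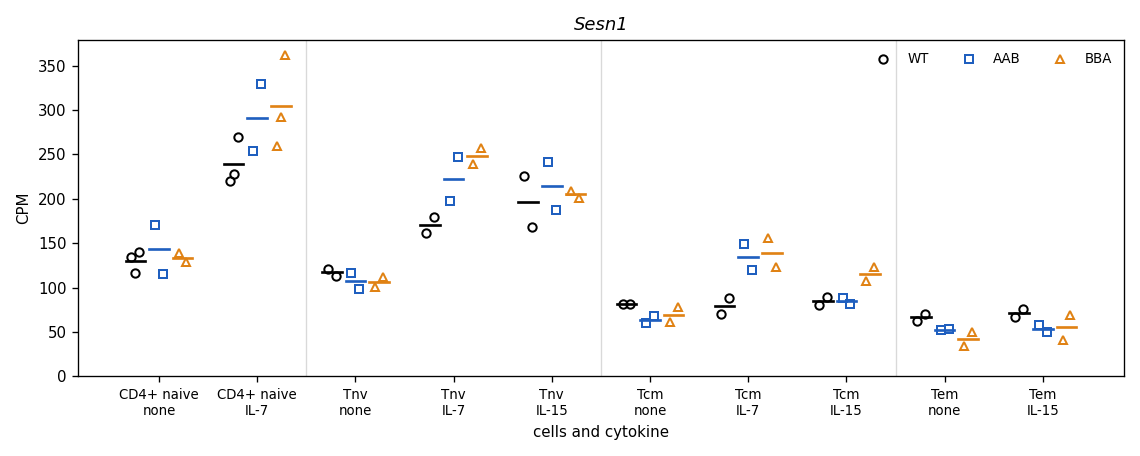
Sesn1 level in CPM (vertical axis) by cell type and cytokine (horizontal axis). Points are libraries, short lines are group means, and colours and shapes give the genotype. Levels rise with cytokine in naive CD4+ cells and Tnv of all genotypes (to 161 CPM or more) and, in Tcm with IL-7, in AAB and BBA (119 to 155 CPM) above WT (69.8 and 87.7 CPM).

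Sesn3, a sestrin gene known as a FoxO target, was lower with IL-7, mostly by less than 1.5-fold. In WT naive CD4+ cells it was 130.4, 115 and 153 CPM without cytokine and 96.3, 88.9 and 97.5 CPM with IL-7. These did not overlap, and the fall by 0.50 on the log2 scale passed the adjusted p (0.00378) and not the fold limit. In WT Tnv it was 131 and 124 CPM without cytokine, 87.8 and 96.4 CPM with IL-7 and 127 and 129 CPM with IL-15. A lower value was thus seen with IL-7 (−0.47 ± 0.14, adjusted p = 0.0248, under the fold limit). The Tnv libraries with IL-7 were male and the others female, so sex and IL-7 cannot be told apart there. The one call was in AAB Tcm with IL-7, from 132 and 125 to 76.8 and 88.8 CPM (−0.61 ± 0.11, adjusted p = 0.0431), which held in 2 of 12 refits with a library left out. BBA minus WT was 0.51 ± 0.10 in Tcm with IL-15 (adjusted p = 0.00627, under the fold limit) and 0.60 ± 0.12 in Tem with IL-15 (adjusted p = 0.0723, and 0.00682 with the replicate number as a block).

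Ddit4 encodes REDD1, a stress-induced activator of the TSC complex whose transcription is raised by glucocorticoids and hypoxia. It had the largest changes of the 9, and they were falls with cytokine in all genotypes. In naive CD4+ cells it was 353, 102 and 263 CPM in WT, 571 and 107 CPM in AAB, and 295 and 275 CPM in BBA without cytokine. With IL-7 it was 21.0, 19.6 and 25.5 CPM in WT, 21.3 and 28.2 CPM in AAB, and 34.0, 23.8 and 30.2 CPM in BBA. Libraries without cytokine varied widely within WT and AAB and yet stayed above every library with IL-7. The responses were −3.45 ± 0.54 in WT (10.9-fold lower, adjusted p = 0.000292), −3.77 ± 0.67 in AAB (adjusted p = 0.00126) and −3.27 ± 0.55 in BBA (adjusted p = 0.000801).

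In CD8+ cells without cytokine Ddit4 was 173 to 283 CPM in Tnv, 166 to 302 CPM in Tcm and 173 to 275 CPM in Tem. With IL-7, Tnv fell to 18.2 and 22.2 CPM in WT, 52.2 and 29.6 CPM in AAB, and 50.1 and 31.4 CPM in BBA (−3.50 ± 0.34, −2.52 ± 0.32 and −2.48 ± 0.32, adjusted p = 0.000103, 0.000765 and 0.00114). With IL-15, Tnv fell to 48.7 and 45.8 CPM in WT, 40.7 and 69.6 CPM in AAB, and 49.96 and 64.4 CPM in BBA (−2.26 ± 0.28, −2.07 ± 0.27 and −1.93 ± 0.28, adjusted p = 0.00103, 0.000825 and 0.0007). All of these libraries lay below all libraries without cytokine. With IL-7 the 2 WT Tnv libraries were below the 4 of the deficient genotypes, by 1.02 ± 0.34 for AAB (adjusted p = 0.384) and 1.01 ± 0.33 for BBA (adjusted p = 0.184), neither called.

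With IL-15, Ddit4 was higher in AAB than in WT Tcm, and the values in Tem had the same order. In Tcm it was 46.6 and 42.2 CPM in WT, 81.0 and 74.9 CPM in AAB, and 58.6 and 60.5 CPM in BBA, and in Tem it was 45.0 and 33.4 CPM in WT, 68.2 and 69.1 CPM in AAB, and 54.1 and 58.2 CPM in BBA. The order was WT, BBA, AAB in both states with no overlap. In Tcm, AAB minus WT was called (0.86 ± 0.10, 1.81-fold, adjusted p = 0.00557). That call held in 5 of 6 refits with a library left out and was lost without replicate 1 of AAB. It was also lost in 1 fit over all libraries and with Bonferroni adjustment. BBA minus WT was 0.48 ± 0.10 (adjusted p = 0.0079, under the fold limit) and AAB minus BBA was 0.38 (adjusted p = 0.0531). In Tem, AAB minus WT was 0.83 ± 0.15 (adjusted p = 0.283, and 0.0229 with the replicate number as a block) and BBA minus WT was 0.53 ± 0.15 (adjusted p = 0.148). The falls with IL-15 themselves were −2.38 ± 0.24 in WT, −1.36 ± 0.23 in AAB and −1.82 ± 0.24 in BBA Tcm (adjusted p = 0.000476, 0.0108 and 0.00173), and −2.52 ± 0.24, −1.76 ± 0.24 and −2.09 ± 0.24 in Tem (adjusted p = 0.00155, 0.00888 and 0.00199). No difference between responses was called for Ddit4.

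For Tcm with IL-15 the members called were 3 of 9 in WT (Fnip1, Fnip2 and Ddit4), 1 in AAB (Ddit4) and 2 in BBA (Sesn1 and Ddit4), where 8.65%, 3.73% and 8.98% of all genes tested were called. In Tem with IL-15 Ddit4 was the only one of 9 called in each genotype, where 1.59%, 1.79% and 7.22% were called.

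Tcm with IL-7 showed Ddit4 at 436 and 26.8 CPM in WT, 25.6 and 29.7 CPM in AAB, and 28.0 and 27.9 CPM in BBA. A single WT library was thus above every CD8+ library without cytokine, and the other 5 lay between 25.6 and 29.7 CPM. With it, no response was called (−0.04 ± 0.82 in WT, adjusted p = 0.99, −2.86 ± 0.89 in AAB, adjusted p = 0.14, and −2.90 ± 0.90 in BBA, adjusted p = 0.118). Without it, the 3 responses were −3.12, −2.87 and −2.90. Without the other WT library instead, those of AAB and BBA were −2.86 and −2.90, so these 2 hardly moved with either left out. The WT library at 436 CPM had Txnip at 2001 CPM against 477 CPM in the other WT library, and Bcl2, a STAT5 target, at 583 against 1208 CPM. It also entered 4 of the 5 calls between WT cell states. Tcm minus Tnv with IL-7 had 4 of 9 members called, where 18.6% of all genes tested were called (Ddit4 3.47 ± 0.93, Fnip1 −1.37 ± 0.43, Tsc1 −0.72 ± 0.21 and Sesn1 −1.14 ± 0.19, adjusted p = 0.0298, 0.0468, 0.0380 and 0.00647), and Ddit4 (0.41, adjusted p = 0.485), Fnip1 (−0.75, adjusted p = 0.13) and Tsc1 (−0.46, adjusted p = 0.198) were not called without it. With IL-15, Sesn1 was the 1 of 9 called (8.84%). Tcm minus Tnv without cytokine, Tem minus Tcm without cytokine and Tem minus Tcm with IL-15 had 0 members called by edgeR, where 3.42%, 2.26% and 5.88% were called and 3, 1 and 1 members were at an unadjusted p under 0.05.

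**Figure D4:**
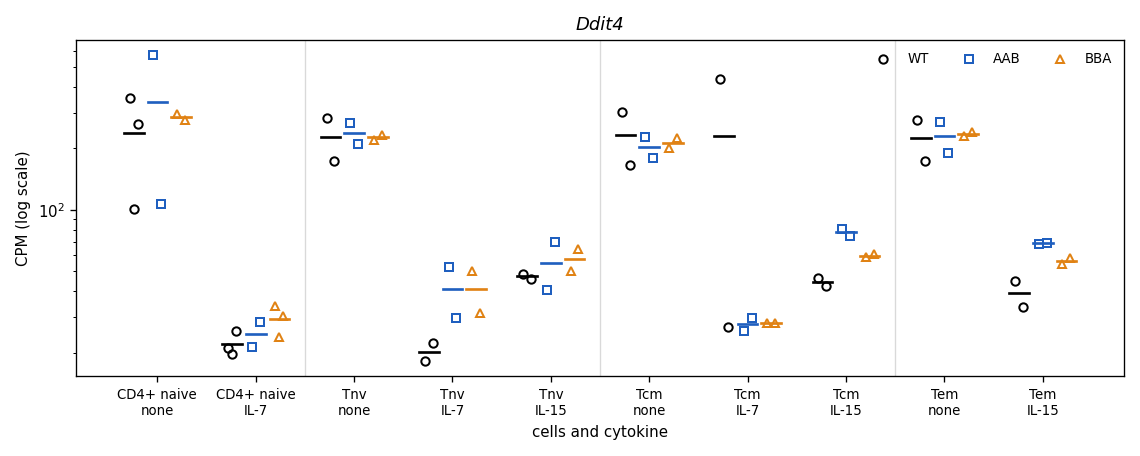
Ddit4 level in CPM on a log axis (vertical) by cell type and cytokine (horizontal). Points are libraries and short lines group means. All libraries without cytokine are at 102 CPM or more and all with cytokine at 81.0 CPM or less, apart from 1 WT Tcm library with IL-7 at 436 CPM.

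Depdc5, Tsc1 and Rptor, the subunits of GATOR1, of the TSC complex and of mTORC1, changed little. Depdc5 was 39.6 to 68.5 CPM over the CD8+ libraries (median 46.0 CPM) and its log2 difference lay between −0.38 and 0.40 over all 66 contrasts, with no call. It was higher with IL-7 in WT Tnv (54.9 and 53.9 CPM against 42.7 and 45.4 CPM), by 0.30 ± 0.09 (adjusted p = 0.0258, under the fold limit). Tsc1 was 92.3 to 136 CPM in CD4+ and 47.3 to 102 CPM in CD8+ libraries. In WT naive CD4+ cells it was 94.4, 104.8 and 92.3 CPM without and 122, 134 and 112 CPM with IL-7, which did not overlap (0.34 ± 0.08, adjusted p = 0.00554, under the fold limit).

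Rptor was lower in BBA than in WT in all 8 CD8+ conditions, by 0.15 to 0.73 on the log2 scale. In none was it called in the main edgeR fits, with each condition fitted by itself and no replicate block. In Tnv with IL-15 it was called with filterByExpr (−0.59, adjusted p = 0.0358) and without a filter (−0.69, adjusted p = 0.0147). The largest gap was in Tem without cytokine, with 142 and 142 CPM in WT, 99.9 and 105 CPM in AAB, and 75.5 and 91.1 CPM in BBA. The 3 genotypes did not overlap (BBA minus WT −0.73 ± 0.13, adjusted p = 0.117). That difference was called with the replicate number as a block (adjusted p = 0.0136), by DESeq2 (−0.73, adjusted p = 0.000685), without a filter (−0.85, adjusted p = 0.000145) and in 1 fit over all libraries (−0.77, adjusted p = 0.000701). In Tcm with IL-15, Rptor was 105 and 107 CPM in WT, 109 and 107 CPM in AAB, and 81.4 and 80.5 CPM in BBA, so BBA stood apart from both (BBA minus WT −0.33 ± 0.08, adjusted p = 0.0153; AAB minus BBA 0.40 ± 0.08, adjusted p = 0.0290; both under the fold limit). The CD4+ libraries gave BBA minus WT of 0.05 without and 0.10 with IL-7. By state, WT Rptor was 93.9 and 98.6 CPM in Tnv, 110.1 and 130.5 CPM in Tcm, and 142 and 142 CPM in Tem without cytokine, neighbours in that order that did not overlap and were not called (Tcm minus Tnv 0.33 ± 0.11, adjusted p = 0.163).

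**Figure D5:**
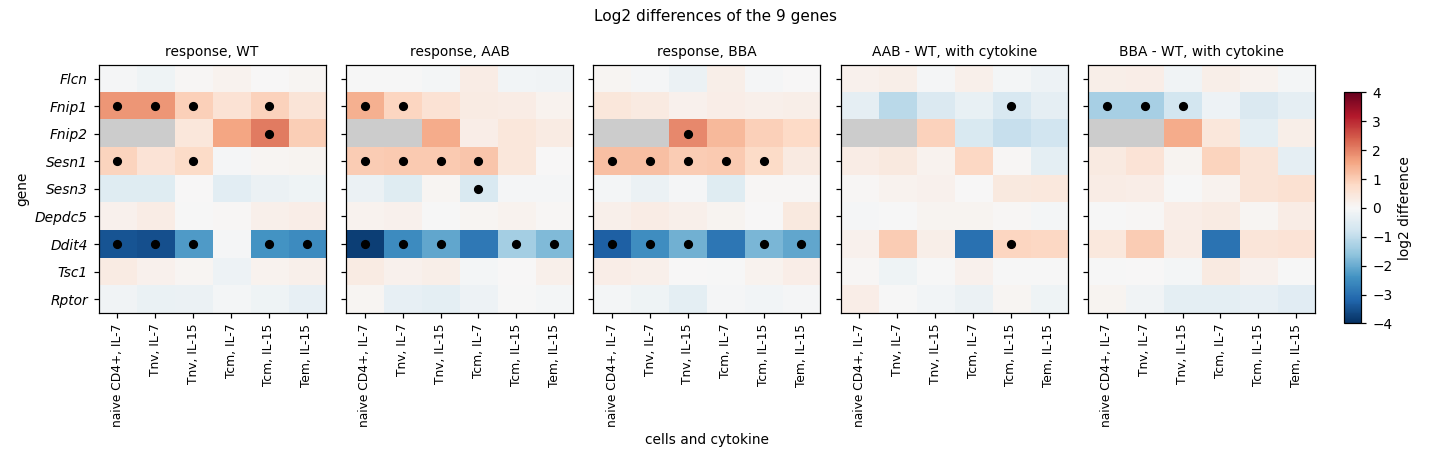
Log2 difference (colour) of the 9 genes (rows) in 6 pairs of cell type and cytokine (columns), for the response to cytokine in WT, AAB and BBA and for AAB minus WT and BBA minus WT with cytokine. A black dot marks a call and grey a gene not tested. Ddit4 is negative throughout the response panels, though near 0 in WT Tcm with IL-7 (−0.04), Sesn1 is positive in the naive columns, and Fnip1 is positive in the WT responses and negative in the panels against WT.

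Counted over all conditions, 12 of 52 tests of a member's response to cytokine were called in WT (7 higher and 5 lower), 12 in AAB (6 and 6) and 11 in BBA (6 and 5). Among them, 4 responses of Fnip1 were called in WT, 2 in AAB and 0 in BBA, whereas Ddit4 gave 5 calls in each genotype and Sesn1 gave 2, 4 and 5. The share of all genes tested that were called in a response was 0.265% to 19.6% in WT, 0.617% to 15.9% in AAB and 1.49% to 20.2% in BBA. These counts over genotypes thus stand beside unequal backgrounds. For BBA minus WT the difference between responses was called in 3 of 52 tests. Fnip1 in naive CD4+ cells with IL-7 was the 1 of 8 members called there (1.11% of all genes tested), and the remaining calls were Fnip1 in Tnv with IL-7 and Sesn1 in Tcm with IL-15. For AAB minus WT it was called in 0 of 52 in the main edgeR fits, with 10 tests at an unadjusted p under 0.05 and 1 call by DESeq2. Between genotypes within a CD8+ condition, 2 of 68 member tests were called for AAB minus WT, 2 for BBA minus WT and 0 for AAB minus BBA (7 at an unadjusted p under 0.05, 0 by DESeq2). The share of all genes tested that were called in these conditions was 0.019% to 4.27% for AAB minus WT, 0.207% to 23.7% for BBA minus WT and 0.00949% to 5.99% for AAB minus BBA, so equal counts of members stand beside unequal backgrounds. Without cytokine no member was called in the main edgeR fits in any cell type. With the replicate number as a block, Rptor and Sesn1 were called for BBA minus WT in Tem. For AAB minus WT the share of all genes tested that were called was 0.166% in Tnv, 0.0411% in Tcm, 0.0197% in Tem and 0.373% in naive CD4+ cells, for BBA minus WT it was 2.78%, 0.287%, 0.207% and 1.13%, and for AAB minus BBA it was 0.551%, 0.0411%, 0.0197% and 0.0765%. Of members tested, at most 3 were at an unadjusted p under 0.05 in any of these comparisons (BBA minus WT in Tem).

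With a cytokine, AAB minus WT had 0 members called in Tnv with IL-7 (0.257% of all genes tested), Tnv with IL-15 (0.893%), Tcm with IL-7 (0.0598%), Tem with IL-15 (0.019%) and naive CD4+ cells with IL-7 (0.627%). BBA minus WT had 0 called in Tcm with IL-7 (3.09%) and Tem with IL-15 (1.79%). AAB minus BBA had 0 called in Tnv with IL-7 (0.148%) and IL-15 (0.0702%), Tcm with IL-7 (0.0898%) and IL-15 (5.99%), and Tem with IL-15 (0.00949%). These counts are of the main edgeR fits, and 0 to 4 members were at an unadjusted p under 0.05 in each. The difference between responses was called for 0 members in the main edgeR fits of the remaining comparisons. For BBA minus WT these were Tnv with IL-15 (2.42%), Tcm with IL-7 (0.108%) and Tem with IL-15 (0.00922%), and for AAB minus WT Tnv with IL-7 (0.291%) and IL-15 (0.318%), Tcm with IL-7 (0.0098%) and IL-15 (0.128%), Tem with IL-15 (0%) and naive CD4+ cells with IL-7 (0.0191%).

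Other genes of the pathway were followed from lists of Rag GTPases, Ragulator, GATOR1 and KICSTOR, GATOR2, amino acid sensors, the TSC complex, mTOR complexes, their substrates, AMPK, and PI3K, AKT and FoxO (67 genes beside the members, of which 54 to 60 were tested in a contrast). In WT naive CD4+ cells with IL-7, 4 of 59 were called higher and 3 lower, where 16.3% of all genes tested were called, with a median log2 difference of 0.08 against 0.00 over all genes. In Tnv with IL-7, 8 of 57 were called higher and 4 lower in WT, 4 and 2 in AAB, and 5 and 2 in BBA, where 19.6%, 13.9% and 10.9% of all genes were called. Between AAB and WT none was called in any of the 8 CD8+ conditions (0 by edgeR in each), where 0.019% to 4.27% of all genes were called. Between BBA and WT, Tcm with IL-15 had 5 higher and 3 lower of 59, where 23.7% of all genes were called.

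Rragd, which encodes the RagD that folliculin acts on, also had its largest IL-7 response in WT. In naive CD4+ cells it was 3.40, 2.68 and 2.11 CPM in WT, 3.56 and 3.60 CPM in AAB, and 9.20 and 8.38 CPM in BBA without cytokine. With IL-7 it was 34.1, 32.4 and 36.4 CPM in WT, 13.1 and 19.1 CPM in AAB, and 24.2, 20.4 and 24.1 CPM in BBA. BBA was thus highest without cytokine and WT highest with it, with no overlap in either. The response of Rragd was 3.68 ± 0.18 in WT (adjusted p = 2.03e-08), 2.16 ± 0.21 in AAB (adjusted p = 1.82e-05) and 1.39 ± 0.18 in BBA (adjusted p = 0.000117), and that of BBA differed from WT by −2.29 ± 0.25 (adjusted p = 0.00026). BBA minus WT was 1.70 ± 0.25 without cytokine (adjusted p = 0.0164), and AAB minus WT was −1.09 ± 0.16 with IL-7 (adjusted p = 0.0194). In Tnv the IL-7 response of Rragd was 2.82, 1.96 and 1.48 in WT, AAB and BBA, each called.

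Other genes of the lists rose with cytokine in naive cells of all genotypes: Rhebl1, a Rheb relative, and Gatsl2, of the arginine sensor family. Gatsl3, of the same family, went the other way. It fell in WT Tnv with IL-7 (−2.01 ± 0.37, adjusted p = 0.00318). It also fell with IL-7 in naive CD4+ cells of AAB (−0.68, adjusted p = 0.0122) and BBA (−0.69, adjusted p = 0.00495). In naive CD4+ cells with IL-7, Rhebl1 rose by 1.55 ± 0.20, 1.204 ± 0.24 and 1.37 ± 0.22 in WT, AAB and BBA, and Gatsl2 by 1.11 ± 0.12, 1.03 ± 0.14 and 0.94 ± 0.13. Ulk1, the autophagy kinase that mTORC1 restrains, rose by 0.91, 0.91 and 0.78 there. Foxo1 fell by 1.03, 0.86 and 0.77, and in Tnv with IL-7 it fell by 1.24, 0.90 and 0.60, less in BBA than in WT (difference 0.64 ± 0.14, adjusted p = 0.0464). All of these responses were called.

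Larp1, which represses translation of ribosomal protein mRNAs when mTORC1 is off, was lower in BBA with cytokine. In naive CD4+ cells with IL-7 it was 334, 381 and 368 CPM in WT, 298 and 262 CPM in AAB, and 204, 243 and 224 CPM in BBA, with no overlap (BBA minus WT −0.68 ± 0.09, adjusted p = 0.00152). It was also lower in Tnv with IL-15 (−0.78, adjusted p = 0.0216), Tcm with IL-7 (−0.81, adjusted p = 0.0434), Tcm with IL-15 (−1.03 ± 0.09, adjusted p = 0.000388) and Tem with IL-15 (−0.75, adjusted p = 0.0435). Deptor, an inhibitor bound to mTOR, went the other way in Tnv with IL-15, at 3.10 and 4.05 CPM in WT, 7.33 and 8.51 CPM in AAB, and 16.1 and 11.8 CPM in BBA (BBA minus WT 1.99 ± 0.33, adjusted p = 0.0112), and in Tcm with IL-15 (1.33 ± 0.29, adjusted p = 0.0106). Wdr59, a GATOR2 subunit, was higher in BBA in Tnv without cytokine (0.59, adjusted p = 0.0392), Tnv with IL-15 (0.86, adjusted p = 0.0138) and Tcm with IL-15 (0.89, adjusted p = 0.00116).

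Lists of target genes were read beside the members. Of 9 STAT5 targets (Cish, Socs1, Socs2, Socs3, Bcl2, Pim1, Pim2, Myc and Il2ra), 8 were called higher with IL-7 in WT naive CD4+ cells (median log2 difference 2.07), 8 in AAB (1.82) and 4 in BBA (0.56, with 1 called lower). Of all genes tested, 16.3%, 13.1% and 13.6% were called in these responses. Of 7 glucocorticoid targets (Tsc22d3, Fkbp5, Per1, Klf9, Dusp1, Zfp36 and Ddit4 itself), 4 were called lower in each WT response except that of Tcm with IL-7 (0), with medians of −1.15 in naive CD4+ cells and −1.84 in Tcm with IL-15, and 1 was called higher, in naive CD4+ cells. Ddit4 was among the glucocorticoid targets called lower in each of those WT responses. In them 1.59% to 19.6% of all genes tested were called, against 0.265% in WT Tcm with IL-7. Of 10 p53 targets at most 1 was called in a direction in any contrast, and of 9 ATF4 targets at most 2. Over all contrasts 0% to 23.7% of all genes tested were called. What lay behind the counts of these lists was not tested. 

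The genes whose pattern was most like that of a member were found by Pearson's r over the means of the 24 CD8+ groups, among 9946 genes, on a log2 scale. For Fnip1 they were Gpr146 (0.93), Slc30a4 (0.92) and Ncoa3 (0.92), for Sesn1 A930005H10Rik (0.97), Usp28 (0.96) and Gucd1 (0.95), and for Ddit4 Ptpn6 (0.95), Cd69 (0.93) and Zap70 (0.93). Tsc1 went with Tnrc6b (0.95) and Eps15 (0.94), Rptor with Cdkn2aipnl (0.90), Mgat2 (0.87) and Slc35c2 (0.86), and Sesn3 with Foxp4 (0.88), Kcnn4 (0.88) and Ncoa1 (0.87). Likeness was lower for Depdc5 (Mettl4, 0.85, Skil, 0.82, and Lrrc39, 0.81) and for Flcn (Idnk, 0.77, Dda1, 0.76, and Mrpl53, 0.75), the genes that varied least, and Fnip2 was under the minimum level. Among the members themselves, r was 0.63 between Fnip1 and Sesn1, 0.75 between Sesn1 and Tsc1, −0.65 between Fnip1 and Ddit4, and 0.04 between Fnip1 and Flcn. The groups share culture, sex and batch, and these values describe them only.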

How the data were processed

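The authors deposited raw counts of reads per gene symbol in 3 tables. By the study's methods they were single-end reads of poly(A)+ RNA, aligned to mm10 with tophat2 and counted with htseq-count. The submitters' processing notes name mm9 instead, with TopHat2, HTSeq and Cufflinks. The annotation and strandedness of counting are not given in the sources used here, and reads shared with overlapping genes could be split. In the table of transduced cells 5 summary rows held 67.0% to 68.4% of reads and were left out.

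Each condition was fitted with its 3 genotypes, each response with both cultures and all genotypes, and each state contrast with all CD8+ libraries of a culture, in edgeR 4.0.16 (R 4.3.3, TMM, older quasi-likelihood functions), after the filter of HTSFilter, re-implemented over 100 thresholds from 1 to 200 normalized counts. Levels are CPM on the TMM scale of the genes that pass that filter. Likeness used log2(CPM + 1) and genes with a mean of at least 5 CPM. The code was tested on simulated counts. Alternatives were Bonferroni adjustment, no fold limit, filterByExpr or no filter, DESeq2 size factors, DESeq2 1.42.0 and 1 fit over all libraries. Others were a replicate block, a sex term for the genotypes of Tcm with IL-7 and leaving out each library.

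Members and gene lists were chosen with earlier results of these data known. All members are named, then list genes that were called, up to 4 by fold per list and contrast, and for each member the 3 genes most like it. A gene of the last kind and counts over the list of FoxO target genes are not reported here. Same-numbered libraries deviated together (r over 0.1 in every pair) in all conditions of CD8+ cells but Tcm with IL-7 (2 of 6 pairs, −0.05 to 0.27), in naive CD4+ cells without cytokine, and over both cultures for each IL-15 response, so values with a replicate block are given where they change a call. Positions are from the GENCODE annotation of GRCm38.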

Additional observations from a re-analysis of the deposited data

Results flagged for a closer look

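A test of the difference between the cytokine responses of BBA and WT cells passed for 3 member results. They were Fnip1 in naive CD4+ cells with IL-7 (−1.30 on the log2 scale, adjusted p = 6.42e-05 by edgeR), Fnip1 in Tnv with IL-7 (−1.40, adjusted p = 0.0377) and Sesn1 in Tcm with IL-15 (0.69, adjusted p = 0.0421). The first held in 15 of 15 refits with a library left out, the second in 3 of 12 and the third in 1 of 12. The second held under 7 of 9 other settings, and was lost with Bonferroni adjustment and in 1 fit over all libraries. The third was also lost under 5 of 9 other settings, among them filterByExpr (0.54, adjusted p = 0.167) and no filter (0.48, adjusted p = 0.276). Groups of 4 or more libraries, in which a single far value could have been tested, did not occur.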

How the results depend on the processing

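No value of a called member changed direction under any alternative run. Of refits of called members with a library left out, 455 kept the call and 93 lost it. Of those under other settings, 379 kept it and 58 lost it.

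Counts of members called moved by over 1.5 times as follows. For AAB minus WT in CD8+ cells (2), they were 0 with Bonferroni adjustment, 8 without a filter, 5 with DESeq2 and 5 with a replicate block. For BBA minus WT in CD8+ cells (2), they were 7 without a fold limit, 0 with Bonferroni adjustment, 4 with filterByExpr, 10 without a filter, 6 with DESeq2, 5 with a replicate block and 5 with 1 fit over all libraries. For AAB minus BBA (0) the count was 2, and for AAB minus WT in CD4+ cells (0) it was 1, without a fold limit. Responses with Bonferroni adjustment were 4 in WT (12), 1 in AAB (12) and 1 in BBA (11). For the difference of responses between BBA and WT (3) the counts were 1 with Bonferroni adjustment, 7 without a filter, 7 with DESeq2 and 5 with a replicate block, and between AAB and WT (0) they were 4 without a filter and 1 with DESeq2. For cell state (5) they were 9 without a fold limit, 0 with Bonferroni adjustment and 2 without both WT libraries that stood apart, and for CA-STAT5A (1) 0 with Bonferroni adjustment. With a library left out, the counts were 0 to 5 for AAB minus WT, 1 to 6 for BBA minus WT and 0 for AAB minus BBA in CD8+ cells, 0, 1 and 1 in CD4+ cells, 11 to 14, 9 to 13 and 10 to 12 for the responses in WT, AAB and BBA, 2 to 5 and 0 to 2 for the differences of responses, 1 to 6 for cell state and 0 to 2 for CA-STAT5A. The causes were not tested.

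TMM over all genes in place of filtered genes, chosen after seeing the data, shifted 20 of 66 contrasts by over 0.1 on the log2 scale (up to 0.32), and BBA minus WT in Tcm with IL-15 by −0.28. With filterByExpr, Fnip1 in that comparison was −0.79 (adjusted p = 0.000775) and was called. With 2 libraries a group, leaving out 1 leaves a lone library assumed to vary like the others, and depth limits Fnip2 most.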

Other observations

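Both libraries of naive CD4+ cells that were in no comparison are named in their titles as without cytokine while another label gives IL-7. The AAB library had Ddit4 at 475 CPM and Fnip1 at 56.1 CPM, and the BBA library had Ddit4 at 367 CPM and Fnip1 at 54.5 CPM.

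Txnip, an inhibitor of glucose uptake, fell in Tnv with IL-7 in WT (−0.91 ± 0.18, adjusted p = 0.00494 by edgeR), AAB (−1.03 ± 0.18, adjusted p = 0.00379) and BBA (−1.05 ± 0.18, adjusted p = 0.00503). Prr5l, an mTORC2 subunit, was higher in WT Tem than Tcm without cytokine (2.85 ± 0.49, adjusted p = 0.0101) and with IL-15 (2.79 ± 0.51, adjusted p = 0.00731). Beside the member Fnip2, it was the only listed pathway gene called with CA-STAT5A (0.78 ± 0.11, adjusted p = 0.0104). Bcl6 was higher in BBA than in WT in Tnv without cytokine (1.28 ± 0.12, adjusted p = 0.00339), Tcm without cytokine (1.41 ± 0.18, adjusted p = 0.045), Tcm with IL-15 (1.94 ± 0.26, adjusted p = 0.00185) and Tem with IL-15 (1.98 ± 0.25, adjusted p = 0.0326).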
